A study of Mus musculus with 6 samples.

Results

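The genes described here are the mouse cytochrome P450s outside the Cyp4a subfamily and the sterol and bile acid P450s named below, in liver of mice on a high-fat diet. Other steroid and sterol P450s, such as Cyp46a1 and Cyp17a1, were kept. They were taken by symbol (Cyp, digits, letters and digits, with a closing letter allowed, as in Cyp3a41a). Pseudogenes with -ps, the antisense RNA Cyp4x1os, the Cyp4a genes, Cyp51, Cyp7a1, Cyp7b1, Cyp8b1, Cyp27a1, Cyp39a1 and Cyp2c70 were left out. This gave 85 genes of the 39179 in the count tables, and 45 of them had enough counts to be tested. The 2 groups were 3 livers with isolated steatosis and 3 with nonalcoholic steatohepatitis (NASH). All 6 came from C57BL/6J mice (strain tag C57BL/6) that began a high-fat diet, 60% of its energy as fat, at an age of 5 weeks and stayed on it for 21 weeks. The groups are histological classes of animals on 1 diet, read from haematoxylin and eosin sections, and neither a treatment nor a genotype separates them. Nothing in the labels gives the animal behind each library, so p-values measure only the spread between these samples.

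P450s are haem-containing monooxygenases of the endoplasmic reticulum and, for a few, of mitochondria. They take electrons from the reductase Por or, in mitochondria, from the ferredoxin Fdx1, and oxidise drugs, toxicants, fatty acids, retinoids and steroids. Liver is their main site. There the Cyp1 genes are known as targets of the aryl hydrocarbon receptor, Cyp2b and several Cyp2c genes of the constitutive androstane receptor CAR (Nr1i3), and Cyp3a genes of the pregnane X receptor PXR (Nr1i2). Several, Cyp2e1 and Cyp1a2 among them, are expressed mainly by the hepatocytes around the central vein.

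Much of the family lies in tandem arrays of near copies. Of the 85 genes, 67 lay in 10 arrays, counted as runs of members less than 1 Mb apart, and 18 stood alone. The longest array, on chromosome 7 (chr7:25802475-27158668, GRCm38), held 13 members of the Cyp2a, Cyp2b and related subfamilies, and another 13 were Cyp2c genes on chromosome 19 (chr19:39007019-40113950). Bases upstream of the start of transcription are printed for 4 subfamilies, each with the gene of smallest p among those that fell, beside close relatives that differed from it in size of change or in the call. They are RefSeq sequences of GRCm38.p6, written 5′ to 3′, of up to 250 bases and cut where GENCODE M21 places an exon of the gene. Capitals mark the letters TATAAA or AGGTCA on either strand, wherever they lie in the window. The first are the letters of the TATA box and the second those of the half-site bound by many nuclear receptors. Position was not considered, so a marked TATAAA need not be the TATA box of the gene. Cyp2a5, Cyp2a22 and Cyp2a12 lie side by side, and the windows of the last 2 were 90.4% identical while their changes differed widely. The TATAAA of Cyp2a5 lies in the part that was cut.
Cyp2a5, chr7:26835089-26835304, strand +: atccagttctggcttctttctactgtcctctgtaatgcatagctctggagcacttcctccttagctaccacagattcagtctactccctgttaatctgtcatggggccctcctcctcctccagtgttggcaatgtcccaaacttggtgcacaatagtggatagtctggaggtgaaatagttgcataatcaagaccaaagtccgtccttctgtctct
Cyp2a22, chr7:26939387-26939636, strand -: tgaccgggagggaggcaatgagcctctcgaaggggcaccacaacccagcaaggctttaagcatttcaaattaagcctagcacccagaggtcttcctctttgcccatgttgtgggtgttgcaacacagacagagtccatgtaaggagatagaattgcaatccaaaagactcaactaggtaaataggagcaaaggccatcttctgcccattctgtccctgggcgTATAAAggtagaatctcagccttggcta
Cyp2a12, chr7:27028840-27029080, strand +: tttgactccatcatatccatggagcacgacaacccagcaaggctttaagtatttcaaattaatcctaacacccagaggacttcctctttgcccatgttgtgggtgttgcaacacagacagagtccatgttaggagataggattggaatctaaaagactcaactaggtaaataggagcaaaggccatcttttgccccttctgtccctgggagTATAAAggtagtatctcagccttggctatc

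Cyp2b13 fell and Cyp2b9 was not called, with log2 fold changes, NASH minus steatosis, of -3.04 (SE 0.64) and -1.89 (SE 0.57). Their windows were 99.2% identical and both held AGGTCA. Whether a called gene and its uncalled relative differ in their changes was not tested, for this pair or those below.
Cyp2b13, chr7:26061245-26061494, strand +: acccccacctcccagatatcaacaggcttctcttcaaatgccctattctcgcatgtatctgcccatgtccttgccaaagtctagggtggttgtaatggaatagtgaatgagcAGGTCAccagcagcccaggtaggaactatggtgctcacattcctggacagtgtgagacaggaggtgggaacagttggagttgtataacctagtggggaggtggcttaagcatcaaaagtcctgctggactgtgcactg
Cyp2b9, chr7:26173159-26173408, strand +: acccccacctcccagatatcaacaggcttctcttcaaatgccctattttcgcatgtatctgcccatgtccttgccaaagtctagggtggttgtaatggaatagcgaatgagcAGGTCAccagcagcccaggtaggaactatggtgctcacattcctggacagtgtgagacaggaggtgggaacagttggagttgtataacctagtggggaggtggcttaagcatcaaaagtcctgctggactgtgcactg

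Cyp2c29 fell and Cyp2c38 was not called, but their log2 fold changes were near each other, at -1.37 (SE 0.22) and -1.10 (SE 0.36). Their windows were 81.1% identical, and of the pair the Cyp2c29 window alone held AGGTCA.
Cyp2c29, chr19:39286835-39287073, strand +: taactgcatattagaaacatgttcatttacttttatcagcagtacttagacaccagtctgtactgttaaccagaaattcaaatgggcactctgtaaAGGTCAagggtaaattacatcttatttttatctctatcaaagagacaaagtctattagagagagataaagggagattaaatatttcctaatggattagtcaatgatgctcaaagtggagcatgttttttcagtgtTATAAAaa
Cyp2c38, chr19:39463076-39463325, strand -: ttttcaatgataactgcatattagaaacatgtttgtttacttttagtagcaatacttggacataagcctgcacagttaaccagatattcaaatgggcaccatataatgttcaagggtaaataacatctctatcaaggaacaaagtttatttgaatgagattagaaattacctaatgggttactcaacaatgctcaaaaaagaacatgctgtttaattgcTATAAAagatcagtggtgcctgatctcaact

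Cyp3a11 fell and Cyp3a13, which lies elsewhere on the chromosome, was not called (log2 fold changes of -2.70, SE 0.42, and -0.52, SE 0.39). Their windows were 59.1% identical.
Cyp3a11, chr5:145879965-145880104, strand -: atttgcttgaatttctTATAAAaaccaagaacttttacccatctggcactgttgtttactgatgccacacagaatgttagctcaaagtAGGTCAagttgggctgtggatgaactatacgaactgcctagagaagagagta
Cyp3a13, chr5:137921620-137921869, strand -: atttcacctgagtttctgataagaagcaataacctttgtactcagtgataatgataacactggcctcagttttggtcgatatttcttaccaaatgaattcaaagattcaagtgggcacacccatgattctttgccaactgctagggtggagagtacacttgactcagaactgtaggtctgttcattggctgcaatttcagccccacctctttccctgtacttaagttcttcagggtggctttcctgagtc

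RefSeq windows were found for 70 of the 85 genes, and letters were counted on both strands over all 250 bases, before any cut. TATAAA was found in 27 of 80 windows of these genes (33.8%), against 12.4% of all 32851 windows. AGGTCA was found in 5 of the 12 windows of the genes that fell (Cyp3a25 has 2 nearly coinciding windows, both with it), in 4 of 30 windows of tested genes that were not called, and in 14% of all windows. GCGTG, the core bound by the aryl hydrocarbon receptor, was in 1 of those 12 windows and in 28.2% of all. The HNF1 half-site GTTAAT and the FOXA core TGTTTAC were each in 1 of the 12, against 6.43% and 3.17% of all windows. TTCNNNGAA, a STAT core, was in 0 of the 12 and in 7.02% of all. Each motif was counted on its own, also where matches to 2 motifs overlapped. These are counts of letters in short windows, with no test, and say nothing of which factor binds.

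Total gene counts ranged from 13909238 to 18002095 per library. Mitochondrially encoded genes took 62.0% to 83.9% of them. Reads at 4 loci with rRNA-like sequence took 22.3% of NASH 3 and 8.96% of steatosis 2 but at most 1.06% of the other libraries. The 85 genes together held 81339 to 121862 counts in steatosis and 26491 to 36081 in NASH. Genes other than mitochondrial and rRNA-like ones held 3378730 to 5149189 counts in steatosis and 2185922 to 2719869 in NASH. Depth in these genes thus followed the group, and raw P450 counts alone overstate the difference in level. The TMM scaling factor was also higher in every steatosis library than in every NASH library. Hepatocyte markers were high in every library (Alb between 4315 and 7256 CPM), which fits the labelled tissue.

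P450 transcripts as a whole were less abundant in the NASH livers. Their summed level was 5444, 4875 and 4521 CPM (the usual depth-scaled count, here over a TMM-scaled library size) in steatosis and 2454, 2416 and 2405 CPM in NASH. All 3 NASH sums lay below all 3 steatosis sums. As a share of the counts of genes other than mitochondrial and rRNA-like ones, which no scaling factor enters, the sum was 2.41% ± 0.0455 over the steatosis livers and 1.28% ± 0.0609 over the NASH livers (SD, n = 3 each). The alcohol-oxidising enzyme Cyp2e1 alone made 36.1% of the drop in the summed mean, and Cyp2a5, Cyp3a11, Cyp3a25 and Cyp2c37 brought this to 73.9%. Without Cyp2e1 the sums were 3658, 3207 and 3040 CPM in steatosis and 1662, 1827 and 1581 CPM in NASH. In bulk liver RNA, fewer hepatocytes and less RNA per hepatocyte cannot be told apart.

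**Figure D1:**
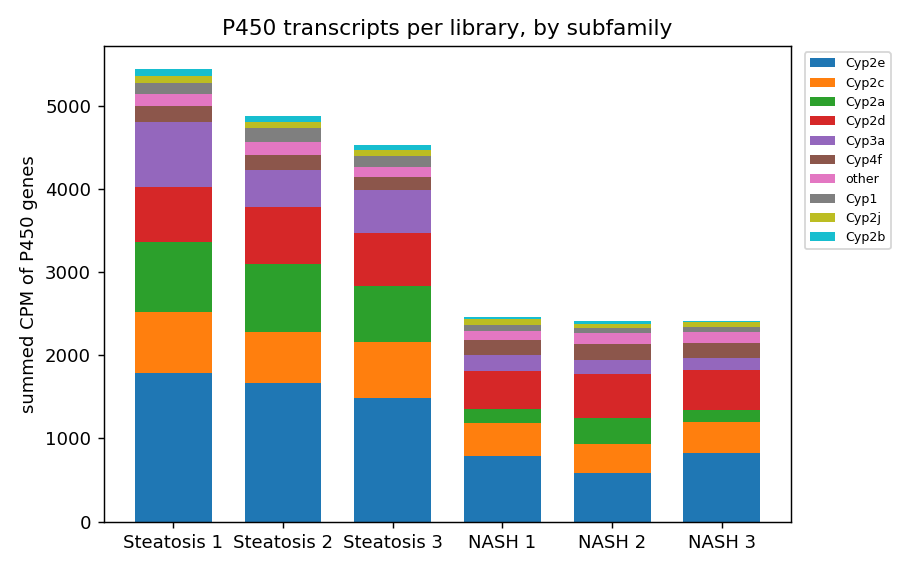
Stacked bars give the summed CPM of the 85 P450 genes in each of the 6 libraries, coloured by subfamily, on an axis that starts at 0. Bars of the NASH libraries reach 2405 to 2454 CPM and those of the steatosis libraries 4521 to 5444 CPM. The Cyp4f segment, at 154 to 196 CPM in steatosis and 183 to 193 CPM in NASH, keeps its height.

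Of the 45 tested genes, 11 fell in NASH and 0 rose by edgeR's quasi-likelihood test at a Benjamini-Hochberg adjusted p under 0.05, a share lower of 24.4%. Over all 11375 tested genes, 3.33% were called lower, 1.49% higher and 4.82% in either direction. At an unadjusted p under 0.05 there were 20 lower and 2 higher, DESeq2 called 16 lower and 1 higher, and limma-voom 12 lower and 0 higher. Every NASH library lay below every steatosis library for 22 of the 45, and above for 2, against 16.2% and 13.1% of all tested genes. With library sizes from other genes and no TMM, 10 of these genes were lower, and over all genes 222 were lower and 178 higher, against 379 and 169 here. The median log2 fold change, NASH minus steatosis, was -0.52 over the 45 and 0.01 over all tested genes. The number lower depended on single libraries: it was 5 without steatosis 1, 5 without steatosis 2, 10 without steatosis 3, 3 without NASH 1, 7 without NASH 2 and 5 without NASH 3. In the 4 libraries with few rRNA-like reads it was 1, Cyp2a22. The log2 fold changes of the 11 stayed below 0 in all 165 values recomputed for them under the alternatives, while the call was lost in 45.

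**Figure D2:**
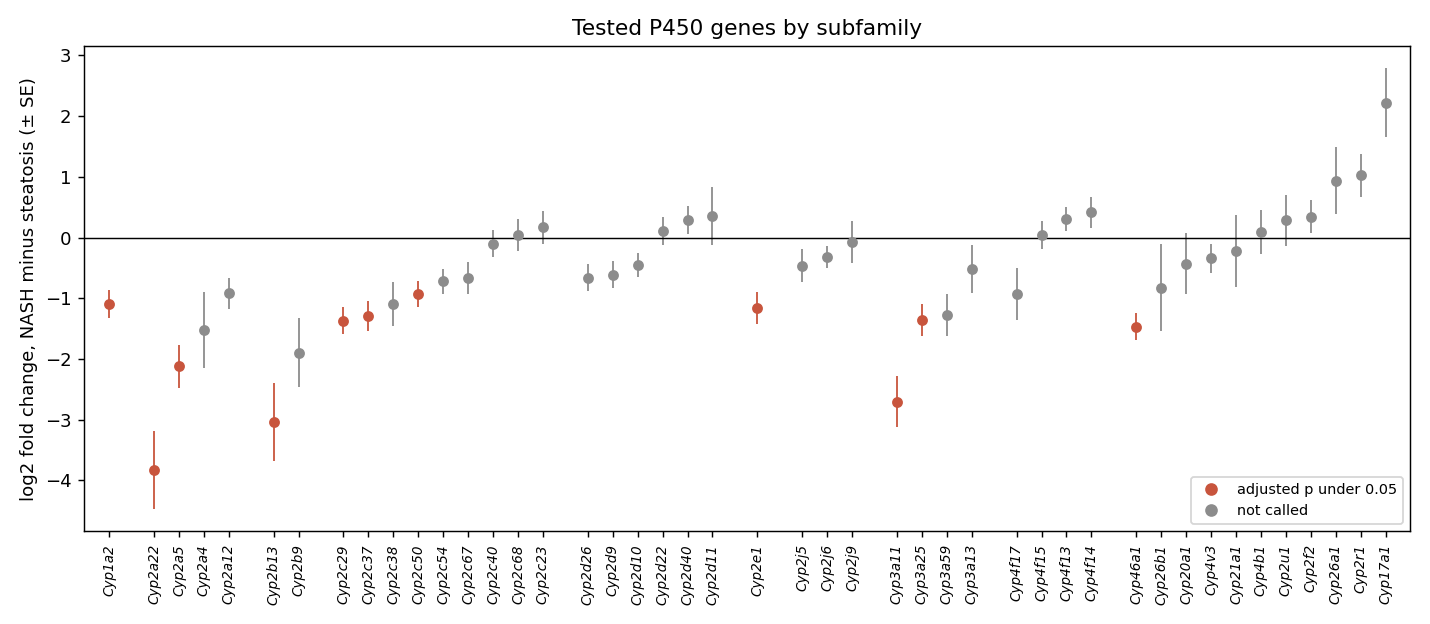
Points give the log2 fold change of each of the 45 tested P450 genes, NASH minus steatosis, with its SE, grouped by subfamily, and red marks an adjusted p under 0.05. The 11 red points lie between -0.93 and -3.83 in Cyp1, Cyp2a, Cyp2b, Cyp2c, Cyp2e, Cyp3a and Cyp46a1, and none lies in Cyp2d, Cyp2j or Cyp4f.

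**Figure D3:**
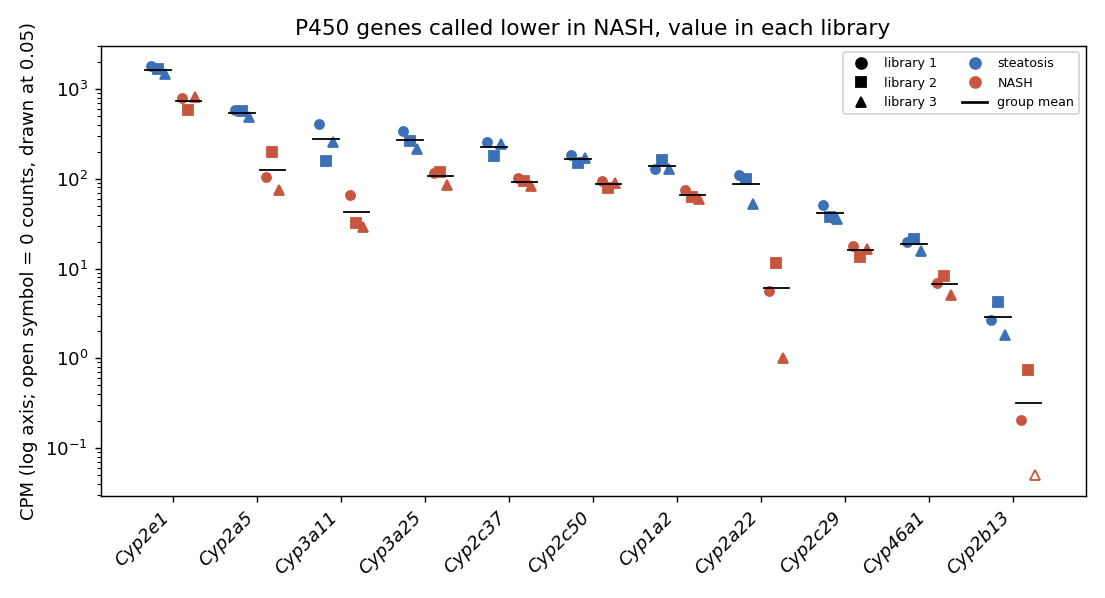
Symbols give the CPM of the 11 genes called lower, on a log axis, for each steatosis (blue) and NASH (red) library, with bars at the group means. For each gene the 3 red symbols lie below the 3 blue ones, and the single open symbol is NASH 3 with 0 counts of Cyp2b13.

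Among Cyp1 genes only Cyp1a2 had enough counts. It oxidises caffeine and aromatic amines. Its levels were 127, 163 and 130 CPM in steatosis and 74.9, 62.2 and 59.5 CPM in NASH. With no overlap between groups, Cyp1a2 fell by 1.09 on the log2 scale (SE 0.22, adjusted p = 0.0265 in edgeR). This call was lost when any 1 library other than steatosis 3 was left out, with log2 fold changes of -1.20 to -0.97 and adjusted p of 0.0584 to 0.116. For Cyp1a1, its inducible neighbour on chromosome 9, the steatosis libraries had 1, 4 and 7 counts and the NASH libraries 0, 2 and 0, and Cyp1b1 between 2 and 9 counts in any library.

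The Cyp2a and Cyp2b genes held the steepest differences. Cyp2a5, which hydroxylates coumarin and nicotine, was the second most abundant of the 45 tested genes per length in steatosis. It measured 584, 566 and 489 CPM in steatosis and 106, 197 and 74.4 CPM in NASH. It fell by 2.12 on the log2 scale (SE 0.35, adjusted p = 0.0128 in edgeR), and the call was lost without steatosis 2 or NASH 1 (adjusted p = 0.0532 to 0.0546, log2 fold changes of -2.10 to -2.01). Cyp2a22 measured 109, 100 and 52.3 CPM in steatosis and 5.63, 11.6 and 0.999 CPM in NASH. This was the largest change among the 45 tested genes of this set, a log2 fold change of -3.83 (SE 0.65, adjusted p = 0.0133 in edgeR). Its call was lost without NASH 1 (log2 fold change -3.77, adjusted p = 0.0574) and was kept without each of the other libraries.

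Cyp2a12, a steroid hydroxylase beside it, measured 135, 154 and 122 CPM in steatosis and 56.5, 97.3 and 63.6 CPM in NASH. The groups did not overlap, but its log2 fold change of -0.92 (SE 0.26, adjusted p = 0.0706 in edgeR) was not called. Coding sequences of Cyp2a12 and Cyp2a22 were 97% identical, and their upstream windows are printed above. Of all stretches of 75 bases in Cyp2a22 transcripts 9.21% also occurred in another P450. The ratio of Cyp2a22 to Cyp2a12 counts within a library, which does not depend on scaling, was 0.812, 0.653 and 0.427 in steatosis and 0.0996, 0.119 and 0.0157 in NASH. The pair was chosen after its values were seen, so the ratio is given without a test. Cyp2a4, a testosterone hydroxylase whose coding sequence was 98.4% identical to that of Cyp2a5, measured 4.25, 2.82 and 1.78 CPM in steatosis and 0.625, 2.14 and 0.0908 CPM in NASH. The log2 fold change of -1.53 (SE 0.63, adjusted p = 0.178 in edgeR) was not called, and the groups overlapped. Its low level, 4.25 CPM at most, is uncertain because reads could be split with Cyp2a5.

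Of the Cyp2b genes, known for their induction through CAR, 2 of 5 were tested. Cyp2b13 measured 2.65, 4.20 and 1.82 CPM in steatosis and 0.208, 0.737 and 0 CPM in NASH, from 162 and 14 summed counts. With 3, 11 and 0 counts in the NASH libraries, it passed the low count filter through its steatosis counts. It fell by 3.04 on the log2 scale (SE 0.64, adjusted p = 0.0285 in edgeR). The call was lost without steatosis 1, steatosis 2, NASH 1 or NASH 3 (log2 fold changes of -3.08 to -2.56, adjusted p = 0.0530 to 0.101). Cyp2b9 was the most abundant gene of the subfamily at 85.6, 71.4 and 58.9 CPM in steatosis and 16.7, 37.1 and 4.09 CPM in NASH. The groups did not overlap, the NASH libraries were far apart, and the log2 fold change of -1.89 (SE 0.57, adjusted p = 0.084 in edgeR) was not called. Without NASH 2 it was -2.77 and called. Cyp2b10, the classic CAR target, had 15, 3 and 5 counts in the steatosis libraries against 0, 7 and 2, too few for the test.

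Within the chromosome 7 array, for Cyp2b13, Cyp2b9, Cyp2a4, Cyp2a5 and Cyp2a22, NASH 2 had the highest and NASH 3 the lowest value of the 3 NASH libraries. These are 5 of the 7 tested genes of the array. The same order was found in 7 of 38 tested P450s outside the array, among them Cyp46a1, Cyp3a25 and Cyp2d9. Whether the array differs in this from other P450s was not tested. For Cyp2a12, NASH 2 was again highest but NASH 1 lowest. Cyp2f2, a periportal hepatocyte P450 that activates naphthalene and closes the measured part of the array, measured 19.1, 35.2 and 34.6 CPM in steatosis and 30.3, 36.6 and 45.9 CPM in NASH. NASH 3 was the highest of the NASH libraries for this gene, and the groups overlapped (log2 fold change 0.34, SE 0.27, adjusted p = 0.491 in edgeR). NASH 3 is also the library with 22.3% rRNA-like reads. Without it, the log2 fold change of Cyp2a22 was -3.33 and the gene was still called.

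**Figure D4:**
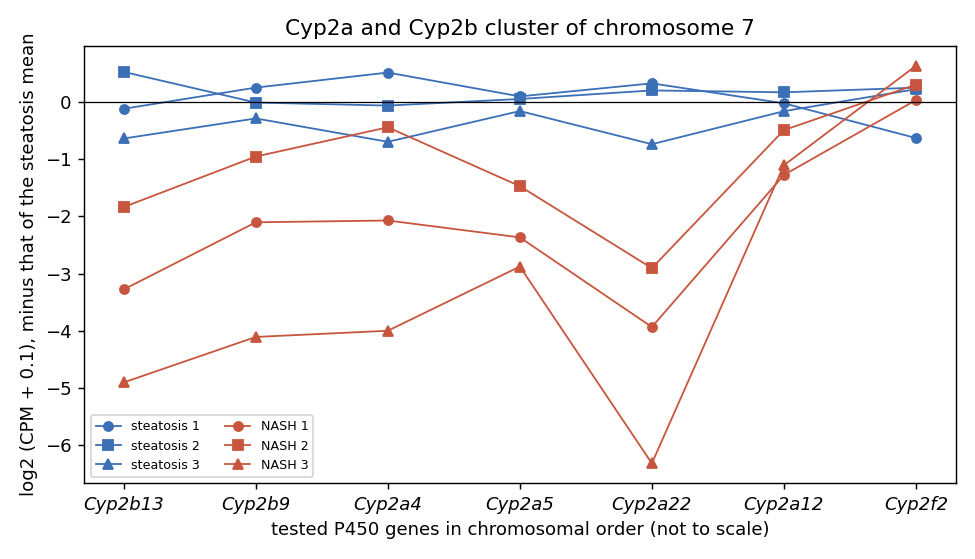
Lines join the 7 tested genes of the chromosome 7 array in chromosomal order for each library, as log2(CPM + 0.1) minus the log2 of the steatosis mean plus the same 0.1. NASH lines (red) lie below the steatosis lines (blue) for most genes, apart from Cyp2a4, where NASH 2 lies within the steatosis range, and meet them at Cyp2f2.

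The Cyp2c subfamily, which oxidises drugs and epoxidises arachidonic acid, split into genes that fell and genes that did not pass. Of 14 genes 9 were tested, and 3 fell. Cyp2c29, the strongest of them by p, measured 51.0, 37.9 and 35.3 CPM in steatosis and 18.1, 13.3 and 16.7 CPM in NASH. It fell by 1.37 on the log2 scale (SE 0.22, adjusted p = 0.0121 in edgeR), and the call was kept without each library in turn. Cyp2c37 measured 259, 177 and 241 CPM in steatosis and 101, 93.3 and 82.3 CPM in NASH. It fell by 1.29 (SE 0.24, adjusted p = 0.0181 in edgeR), and the call ended without steatosis 1, NASH 1, NASH 2 or NASH 3 (log2 fold changes of -1.36 to -1.17, adjusted p = 0.0547 to 0.0728).

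Cyp2c50 and Cyp2c54 lie beside Cyp2c37 and share at least 95.1% of the coding sequence with it. Cyp2c50 measured 185, 149 and 168 CPM in steatosis and 94.9, 79.4 and 88.9 CPM in NASH. It fell by 0.93 (SE 0.22, adjusted p = 0.04 in edgeR). Leaving out any single library ended that call (log2 fold changes of -1.01 to -0.84, adjusted p = 0.0728 to 0.130), as did the replicate block and library sizes from other genes. Cyp2c54 measured 103, 113 and 103 CPM in steatosis and 61.2, 62.3 and 69.8 CPM in NASH, without overlap, and was not called (log2 fold change -0.72, adjusted p = 0.0728 in edgeR). Because these 3 are near copies, reads may have been split among them. Cyp2c38, 89.1% identical to Cyp2c29 in its coding sequence, measured 37.5, 20.7 and 30.3 CPM in steatosis and 14.9, 19.8 and 6.45 CPM in NASH (log2 fold change -1.10, SE 0.36, adjusted p = 0.104 in edgeR).

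The other Cyp2c genes were nearer 0. Cyp2c67 measured 33.5, 34.9 and 39.8 CPM in steatosis and 32.1, 15.6 and 20.6 CPM in NASH (log2 fold change -0.66, SE 0.26, adjusted p = 0.164 in edgeR). Its near copy Cyp2c68, 97.1% identical in coding sequence, measured 21.3, 26.4 and 24.5 CPM in steatosis and 34.3, 16.7 and 23.2 CPM in NASH (log2 fold change 0.04, SE 0.26, adjusted p = 0.946 in edgeR). Reads of this pair may have been split, also with Cyp2c40. Of the 75-base stretches in their transcripts, 24.7% of those of Cyp2c67 and 23.2% of those of Cyp2c68 also occurred in Cyp2c40. For Cyp2c40 itself, 45.9% also occurred in another P450, so its level is uncertain too. Cyp2c40, known as female-biased, measured 5.30, 5.57 and 5.64 CPM in steatosis and 6.67, 4.49 and 4.18 CPM in NASH (log2 fold change -0.10, SE 0.22, adjusted p = 0.830 in edgeR). Cyp2c23, the arachidonic acid epoxygenase listed elsewhere as Cyp2c44, lies apart from the array on chromosome 19. It measured 42.4, 40.3 and 32.0 CPM in steatosis and 29.7, 37.7 and 61.5 CPM in NASH, and its groups overlapped (log2 fold change 0.17, SE 0.28, adjusted p = 0.769 in edgeR).

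The Cyp2d genes are relatives of a human P450 that metabolises many basic drugs. None was called among the 6 tested of 8. Cyp2d9, known as a male-biased steroid hydroxylase, measured 252, 247 and 220 CPM in steatosis and 160, 179 and 132 CPM in NASH (log2 fold change -0.61, SE 0.23, adjusted p = 0.138 in edgeR). Cyp2d26 measured 157, 195 and 176 CPM in steatosis and 97.8, 119 and 117 CPM in NASH (log2 fold change -0.66, SE 0.22, adjusted p = 0.106 in edgeR). Cyp2d10 measured 139, 136 and 129 CPM in steatosis and 102, 96.4 and 97.6 CPM in NASH (log2 fold change -0.45, adjusted p = 0.217 in edgeR). The groups did not overlap for these 3, and none passed. By contrast the groups overlapped for Cyp2d22, at 106, 98.4 and 105 CPM in steatosis and 85.2, 125 and 121 CPM in NASH (log2 fold change 0.10, SE 0.23). Overlap was also seen for Cyp2d40, at 6.59, 10.5 and 11.4 CPM in steatosis and 11.1, 10.6 and 13.4 CPM in NASH (log2 fold change 0.29, SE 0.23, adjusted p = 0.487 in edgeR), and for the low Cyp2d11 (log2 fold change 0.35).

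Cyp2e1 oxidises ethanol, acetone and fatty acids and can release reactive oxygen. Per length it was the most abundant of the 45 tested genes in both groups. It lies alone at chr7:140763739-140774987 (GRCm38, + strand). Per kilobase of transcript it reached 897 ± 83.5 CPM in steatosis and 401 ± 69.7 CPM in NASH (SD, n = 3 each). Its levels per library were 1785, 1668 and 1482 CPM in steatosis and 792, 589 and 824 CPM in NASH, without overlap. It fell by 1.16 on the log2 scale (SE 0.26, adjusted p = 0.0351 in edgeR). Leaving out any single library but steatosis 3 ended the call (log2 fold changes of -1.24 to -1.01, adjusted p = 0.0629 to 0.131), as did the replicate block.

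Next in the order per length in steatosis came Cyp2a5 at 272 ± 25.1 CPM per kilobase, below every library of Cyp2e1 and above every library of the genes after it. Cyp2d9 (140 ± 10.1), Cyp3a25 (137 ± 32.2), Cyp2c37 (124 ± 23.5) and Cyp3a11 (118 ± 54.1 CPM per kilobase) followed, with overlapping ranges. In NASH the order after Cyp2e1 was Cyp2d9 (91.6 ± 13.6), Cyp2d26 (65.6 ± 7.01), Cyp2a5 (62.5 ± 31.6) and Cyp4f15 (60.7 ± 3.14 CPM per kilobase). The last 3 again lay within each other's spread. The range of Cyp2a5, 36.9 to 97.8, also overlapped that of Cyp2d9, 77.2 to 104 CPM per kilobase. Cyp2d10, next at 59.8 ± 1.66 CPM per kilobase, lay within the range of Cyp4f15. Cyp3a11 went from place 6 to place 17 and Cyp2a22 from place 14 to place 30 of 45.

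None of the 3 tested Cyp2j genes, epoxygenases of arachidonic acid, was called. Cyp2j5 measured 45.1, 37.0 and 38.5 CPM in steatosis and 35.2, 17.7 and 34.6 CPM in NASH (log2 fold change -0.46, SE 0.27, adjusted p = 0.335 in edgeR). Cyp2j6 measured 21.1, 19.3 and 18.5 CPM in steatosis and 17.9, 14.8 and 14.3 CPM in NASH (log2 fold change -0.32, SE 0.18, adjusted p = 0.311 in edgeR). The groups did not overlap for either, by narrow margins, and Cyp2j9 had overlapping groups and a log2 fold change of -0.08.

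Of 9 Cyp3a genes, whose enzymes oxidise the widest range of drugs and steroids, 4 were tested and 2 fell. Cyp3a11, the main PXR-inducible form, measured 410, 158 and 258 CPM in steatosis and 66.0, 32.3 and 28.7 CPM in NASH. Steatosis 1 was well above the other steatosis libraries, but the groups did not overlap. Cyp3a11 fell by 2.70 on the log2 scale (SE 0.42, adjusted p = 0.0106 in edgeR), and the call was kept without each library in turn (log2 fold changes of -3.17 to -2.29). Cyp3a25 measured 343, 263 and 215 CPM in steatosis and 116, 119 and 85.3 CPM in NASH. It fell by 1.36 (SE 0.26, adjusted p = 0.0211 in edgeR), and the call ended without any 1 library other than steatosis 3 (log2 fold changes of -1.43 to -1.15, adjusted p = 0.0550 to 0.0791).

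Cyp3a59, 97.5% identical to Cyp3a25 in its coding sequence, was low, at 2.83, 6.71 and 4.49 CPM in steatosis and 1.39, 2.48 and 1.91 CPM in NASH (log2 fold change -1.28, adjusted p = 0.065 in edgeR). Its upstream window was 95.6% identical to that of Cyp3a25, and reads may have been split between them. Cyp3a13, which lies away from the array on chromosome 5, measured 26.8, 18.3 and 32.5 CPM in steatosis and 7.57, 19.0 and 28.1 CPM in NASH. These overlapped (log2 fold change -0.52, SE 0.39, adjusted p = 0.474 in edgeR).

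The Cyp4f genes, which hydroxylate leukotrienes and long-chain fatty acids, were not called, and the groups overlapped for all 4 that were tested. Cyp4f15, the most abundant, measured 155, 121 and 108 CPM in steatosis and 131, 139 and 125 CPM in NASH (log2 fold change 0.04, SE 0.23, adjusted p = 0.938 in edgeR). Cyp4f13 measured 24.5, 33.1 and 25.5 CPM in steatosis and 31.3, 36.4 and 35.1 CPM in NASH (log2 fold change 0.31, SE 0.20, adjusted p = 0.393 in edgeR). Cyp4f14 measured 7.58, 14.6 and 14.6 CPM in steatosis and 16.6, 14.2 and 18.5 CPM in NASH (log2 fold change 0.42, SE 0.26, adjusted p = 0.362 in edgeR). The less abundant Cyp4f17 had a negative value (log2 fold change -0.92, SE 0.43, adjusted p = 0.227 in edgeR). The count of Cyp2e1 over that of Cyp4f15 in the same library was 11.5, 13.8 and 13.7 in steatosis and 6.06, 4.24 and 6.58 in NASH, a ratio free of scaling and chosen after its values were seen.

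Among the remaining genes Cyp46a1 fell. It encodes a cholesterol hydroxylase best known from neurons and lies alone at chr12:108334381-108362234 (GRCm38, + strand). It measured 19.7, 21.2 and 15.7 CPM in steatosis and 6.88, 8.37 and 5.08 CPM in NASH, without overlap. The log2 fold change was -1.46 (SE 0.23, adjusted p = 0.0104 in edgeR), the smallest adjusted p of any P450 tested here, and the call was kept without each library in turn (log2 fold changes of -1.63 to -1.29). Cyp46a1 shares no stretch of 75 bases with another P450 and no exon position with another gene.

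Cyp17a1, the steroid hydroxylase and lyase of androgen synthesis, was the tested member with the largest positive value. It measured 0.862, 0.300 and 0.557 CPM in steatosis and 1.11, 4.96 and 1.91 CPM in NASH, from 34 and 111 summed counts. Its log2 fold change of 2.22 (SE 0.57, adjusted p = 0.0534 in edgeR) was not called, though DESeq2 called it (adjusted p = 0.00265; all alternatives ranged from 2.13e-06 without a filter to 0.183). Without NASH 2, its highest library, the log2 fold change was 1.39 and not called, and without NASH 1 it was 2.60 and called. Cyp2r1, which hydroxylates vitamin D, measured 0.678, 0.599 and 0.631 CPM in steatosis and 0.973, 1.41 and 1.54 CPM in NASH. Its groups did not overlap, and it was not called (log2 fold change 1.02, adjusted p = 0.117 in edgeR).

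The retinoic acid hydroxylases were low and their groups overlapped. Cyp26a1 measured 0.185, 0.839 and 0.742 CPM in steatosis and 0.903, 1.88 and 0.636 CPM in NASH (log2 fold change 0.94, SE 0.55, adjusted p = 0.339 in edgeR). Cyp26b1 measured 1.72, 0.659 and 4.01 CPM in steatosis and 0.556, 2.68 and 0.363 CPM in NASH (log2 fold change -0.82, SE 0.72, adjusted p = 0.532 in edgeR). Cyp4v3, a fatty acid hydroxylase, measured 93.9, 91.8 and 64.7 CPM in steatosis and 55.3, 70.1 and 72.1 CPM in NASH (log2 fold change -0.34, SE 0.24, adjusted p = 0.424 in edgeR). Cyp2u1, a fatty acid hydroxylase, measured 0.493, 0.839 and 0.668 CPM in steatosis and 0.556, 1.14 and 0.726 CPM in NASH (log2 fold change 0.28, SE 0.42, adjusted p = 0.737 in edgeR). Cyp20a1, whose substrate is not known, measured 0.986, 0.899 and 0.853 CPM in steatosis and 1.11, 0.201 and 0.726 CPM in NASH (log2 fold change -0.43, SE 0.51, adjusted p = 0.661 in edgeR). Cyp21a1 and Cyp4b1 had overlapping groups and log2 fold changes of -0.22 and 0.10.

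The 40 genes that were not tested had at most 21 counts in any library, and 19 of them had 0 counts in all 6. The 19 included the steroid and vitamin D enzymes Cyp11a1, Cyp11b1, Cyp11b2, Cyp19a1 and Cyp24a1, and the female-specific Cyp3a16, Cyp3a41a and Cyp3a41b. Since 90.9% of the 75-base stretches of Cyp3a41b also occur in another P450 and the handling of such reads is not given in the sources used here, a 0 for this pair does not show absence. Others with few counts included Cyp2c55 and Cyp2c69, Cyp3a44 and Cyp3a57, and Cyp4f16 and Cyp4f18. Cyp2c39, which hydroxylates retinoic acid, had 10, 14 and 20 counts in the steatosis libraries against 5, 3 and 1. Once scaled to library size its steatosis level was 3.29 times its NASH level (95% counting interval 1.59 to 7.67), with no test.

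Genes that serve the P450s were read from lists of general knowledge. Of 11 tested electron carriers and partners 3 fell and 0 rose, with a median log2 fold change of -0.31. Among all tested genes 3.33% were called lower and 1.49% higher, and no list was tested against these shares. Fdx1, the mitochondrial ferredoxin, measured 23.7, 20.3 and 15.8 CPM in steatosis and 7.30, 5.69 and 10.4 CPM in NASH. It fell by 1.36 (SE 0.25, adjusted p = 0.018 in edgeR), and the call ended without steatosis 1, steatosis 2, NASH 1 or NASH 2 (log2 fold changes of -1.35 to -1.16, adjusted p = 0.0617 to 0.0779). Pgrmc1, a haem-binding partner of P450s, and its relative Nenf fell by 1.08 and 1.67 (adjusted p = 0.0482 and 0.0425 in edgeR). Leaving out any single library ended both calls (log2 fold changes of -1.21 to -0.83 and -1.91 to -1.36). The microsomal reductase Por, on which all microsomal P450s depend, measured 323, 178 and 115 CPM in steatosis and 41.6, 92.6 and 99.9 CPM in NASH. Its groups did not overlap, and it was not called (log2 fold change -1.40, SE 0.42, adjusted p = 0.083 in edgeR). Cyb5a, which carries electrons to some P450s, measured 400.1, 394 and 276 CPM in steatosis and 166, 231 and 186 CPM in NASH (log2 fold change -0.88, SE 0.25, adjusted p = 0.0761 in edgeR).

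Of 13 genes of haem synthesis and breakdown 2 fell and 0 rose, with a median of -0.06, beside 3.33% lower among all tested genes. Cpox, a late enzyme of haem synthesis, fell by 1.20 (SE 0.21, adjusted p = 0.014 in edgeR), and the call ended without steatosis 1 or NASH 1 (log2 fold changes of -1.16 to -1.02, adjusted p = 0.0535 to 0.0540). Blvrb, a biliverdin reductase, fell by 1.09 (adjusted p = 0.0209 in edgeR), and the call ended without any 1 library other than steatosis 3 (log2 fold changes of -1.14 to -0.98). Alas1, the first and rate-limiting enzyme of haem synthesis, measured 398, 661 and 296 CPM in steatosis and 238, 150 and 130 CPM in NASH. It lay just outside the threshold (log2 fold change -1.39, SE 0.35, adjusted p = 0.0508 in edgeR), and limma-voom (0.0436) and DESeq2 (0.00120) called it. Its adjusted p ranged from 0.000103 to 0.323 over all alternatives.

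Of 19 tested transcription factors that regulate P450s 2 fell and 0 rose, with a median of -0.13, beside 3.33% lower among all tested genes. Nr1i3 (CAR) measured 212, 161 and 92.3 CPM in steatosis and 29.2, 33.9 and 28.2 CPM in NASH, without overlap. It fell by 2.35 (SE 0.31, adjusted p = 0.00554 in edgeR), and the call was kept without each library in turn (log2 fold changes of -2.60 to -2.05). In the 4 libraries with few rRNA-like reads its log2 fold change was -2.27 and it was not called (adjusted p = 0.0719 in edgeR; the 6 fits without 1 library gave 0.00251 to 0.0287). None of the 7 partner, haem and regulator genes that fell was called in those 4 libraries. Nr1i3 overlaps Tomm40l on the opposite strand, and without a stated strand setting their reads cannot be told apart. Hlf, a clock-linked factor, fell by 1.07 (adjusted p = 0.0425 in edgeR), and leaving out any single library ended the call (log2 fold changes of -1.20 to -0.83). Nr1i2 (PXR), Ahr and Hnf4a had log2 fold changes of -0.63 (SE 0.33), -0.65 (SE 0.35) and 0.03 (SE 0.21), and none was called. Ppara measured 12.5, 12.4 and 7.38 CPM in steatosis and 3.20, 6.43 and 4.99 CPM in NASH, without overlap, and was not called (log2 fold change -1.14, SE 0.29, adjusted p = 0.0543 in edgeR). A list of P450s taken as CAR-inducible had 8 tested genes: Cyp2a4, Cyp2a5, Cyp2b9, Cyp2b13, Cyp2c29, Cyp2c37, Cyp2c50 and Cyp2c54. The listed Cyp2b10 and Cyp2c55 had too few counts. Cyp2a4, Cyp2b9 and Cyp2b13 also stand among the genes listed as female-biased, and whether each listed gene is inducible here was not tested. Of the 8, 5 fell and 0 rose, with a median of -1.45. These are 5 of the 11 calls already given, beside 24.4% lower among all tested P450s and 3.33% among all tested genes. Whether the list differs from other P450s was not tested.

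**Figure D5:**
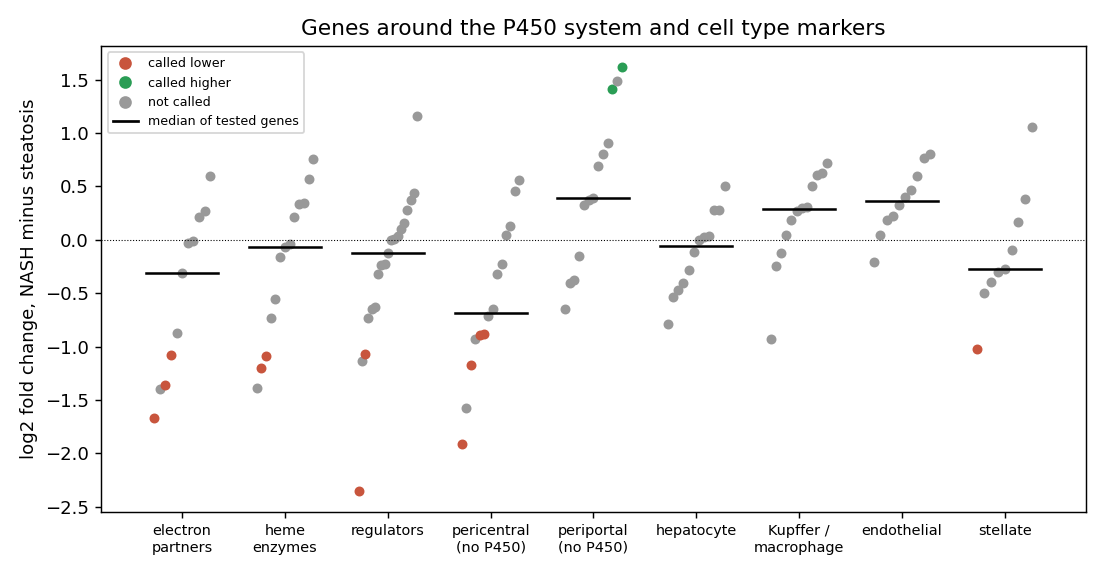
Points give the log2 fold change of each tested gene of 9 lists, NASH minus steatosis, with the median as a bar. Red points fell, green points rose and grey points were not called. Medians lie at -0.68 for pericentral and 0.39 for periportal genes, and at -0.06 for hepatocyte markers. Ahr stands in the regulator and the pericentral list and Alb in the hepatocyte and the periportal list, and Hnf4a in the hepatocyte and the regulator list.

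Genes with a known place in the liver lobule were read beside the P450s. Among all tested genes 3.33% were called lower and 1.49% higher. Leaving P450s out, 4 of 14 tested pericentral genes fell and 0 rose (Aldh1a1, Lect2, Slc1a2 and Slc13a3, with log2 fold changes of -1.91, -1.18, -0.89 and -0.88, and adjusted p of 0.00494, 0.0181, 0.0428 and 0.0481 in edgeR). Their median was -0.68, and their summed level ranged from 1193 to 1485 CPM in steatosis and from 574 to 808 CPM in NASH. Of 13 periportal genes 2 rose and 0 fell (Gls2 by 1.41 and Sds by 1.62, adjusted p = 0.0278 and 0.0457 in edgeR), with a median of 0.39, and their summed levels overlapped at 8454 to 9629 and 6184 to 9465 CPM. Cyp2e1 and Cyp1a2, which fell, belong to the pericentral list, and Cyp2f2, which was not called, to the periportal list. The part of zonation in the P450 changes was not tested.

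Markers of cell types were read in the same way, beside 3.33% lower and 1.49% higher among all tested genes. Of 12 hepatocyte markers 0 were called (median -0.06), with a summed level of 15814 to 19066 CPM in steatosis and 13431 to 14816 CPM in NASH. Of 12 Kupffer cell and macrophage markers 0 were called (median 0.29; 54.7 to 59.7 CPM against 50.5 to 89.1 CPM), and of 10 endothelial markers 0 (median 0.36; 91.6 to 121 CPM against 137 to 190 CPM). Of 9 tested stellate cell markers 1 fell, Dcn, and 0 rose (median -0.27; 63.7 to 77.9 CPM against 43.1 to 59.3 CPM). Cholangiocyte, lymphocyte and neutrophil markers had 4, 2 and 1 tested genes, none called, with sums of at most 54.4, 7.19 and 5.18 CPM. The part of cell type composition in the P450 changes was not tested.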

How the data were processed

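RNA of 6 liver samples was measured by sequencing of polyadenylated RNA as pairs of 150 base reads, per the labels' protocols. The submitters' processing notes name TopHat2, HTSeq and mm10 (GRCm38). For annotation release, strand and shared reads, settings were not given in the sources used here. Files deposited by the authors hold raw counts of reads per Ensembl gene, not normalized. Symbols were found for 37607 of 39179 identifiers, and positions come from GENCODE M21 (GRCm38).

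Counts were filtered with edgeR's default and scaled by TMM (factors of 0.793 to 1.50), and NASH was compared with steatosis by the quasi-likelihood test of edgeR 4.0.16 in R 4.3.3 over 11375 genes, called at a Benjamini-Hochberg adjusted p under 0.05. SE was taken from the fold change and the F statistic. The test was checked on simulated data. Alternatives were DESeq2 1.42.0, limma-voom (limma 3.58.1), other scalings, filters and thresholds, the replicate block and left-out libraries. Sequence identity came from global alignment (Biopython 1.88) of the longest coding sequence of each gene, and levels per length from the transcript that carries it. Intervals of count ratios cover counting error only.

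Members and lists were chosen with earlier results of these data known. Values are printed for members that were called and for a fixed panel of tested members, and for called genes and 8 fixed genes of the partner, haem and regulator lists. Others were chosen after their values were seen. No 2 libraries of a group agreed within counting error (chi-square over its degrees of freedom 38.3 or more).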

Additional observations from a re-analysis of the deposited data

How the results depend on the processing

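Of the P450s, 11 were called lower and 0 higher. The number lower was 12 by limma-voom, 16 by DESeq2, 11 with DESeq2's size factors or upper-quartile factors, 10 with library sizes from other genes, 11 with the stricter filter, 17 without a filter, 15 at an adjusted p under 0.1 and 1 in the 4 libraries with few rRNA-like reads. With 1 library left out it ranged from 3 to 10, and fits with fewer libraries also have less power by construction. The number higher was 1 by DESeq2, without a filter and at an adjusted p under 0.1, and 0 to 1 with 1 library left out. The cause of these differences was otherwise not tested. The replicate block gave 11 lower and 0 higher. Same-numbered libraries deviated together at correlations of 0.03, -0.01 and 0.07, so the numbers were not taken to pair the samples, and not every library correlated best with its own number. Of 792 values of 53 single genes under the alternatives, 0 reversed, 87 lost and 28 gained a call. Library sizes from other genes moved the median of all genes from 0.01 to 0.12 on the log2 scale. Depth limits the 40 P450s with at most 21 counts in a library.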

Other observations

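P450s grouped by other known features gave mixed pictures. For comparison, 24.4% of all tested P450s of this set and 3.33% of all tested genes were called lower. No group was tested against these shares. Of 10 genes known to be female-biased 5 were tested, 1 fell (Cyp2b13) and 0 rose, with a median log2 fold change of -1.53 and a range from -3.04 to 2.22, the upper end being Cyp17a1. Of 3 genes listed as male-biased, Cyp2d9, Cyp2u1 and Cyp2f2, 0 were called and the median was 0.28. Of 11 tested genes on a list of epoxygenases and hydroxylases of arachidonic acid and related lipids 1 fell (Cyp2c29), with a median of -0.32. Of the tested Cyp2c genes the list held only Cyp2c29 and Cyp2c38. Cyp2c37 and Cyp2c50, which fell, and Cyp2c40, Cyp2c54, Cyp2c67 and Cyp2c68, which were not called, are therefore not counted. This list was read without Cyp2c23, which it holds under the other symbol Cyp2c44. The summed level of the listed genes was 405 ± 58.5 CPM in steatosis and 342 ± 5.25 CPM in NASH (SD, n = 3 each). Of 3 tested vitamin A and D enzymes 0 were called. Of 3 tested steroid and sterol P450s 1 fell (Cyp46a1) and 0 rose. The lists for PXR and for the aryl hydrocarbon receptor held the whole Cyp3a and Cyp1 subfamilies, whether or not each gene is inducible. Their counts, 2 of 4 and 1 of 1 tested genes lower, are therefore the subfamily results already given. The orphan and less studied P450s had 2 tested genes and 0 calls.

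By chromosomal array, 3 of 7 tested genes fell on chromosome 7, 3 of 8 in the Cyp2c array of chromosome 19 and 2 of 3 in the Cyp3a array of chromosome 5. None fell among 6 tested Cyp2d genes on chromosome 15, 4 tested Cyp4f genes on chromosome 17 or 3 tested Cyp2j genes on chromosome 4. Among all tested P450s of this set 24.4% were called lower, and among all tested genes 3.33%. These arrays largely follow the subfamilies given above, so the counts repeat calls among the same 11 genes. Differences between arrays were not tested.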
